A study of Mus musculus with 29 samples.

Results

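Brown adipose tissue (BAT) libraries were divided by how much skeletal muscle RNA they held. For each of the 15 BAT libraries of the series, which has 29 libraries in all, a score was taken as the mean of log2(CPM + 1) over Acta1, Ckm, Myh4, Mylpf and Tnnt3, where CPM is the count of a gene divided by the total of its library and multiplied by 1000000. The 10 libraries with a score above 4 are called high here and the 5 libraries with a score of 4 or less are called low. The libraries were thus selected on the levels of these 5 genes, whose difference between high and low libraries is a description and not a finding. On either side of the limit stood CR replicate 2, the highest of the low libraries with a score of 3.16, and control replicate 1, the lowest of the high libraries with a score of 6.40.

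All libraries came from male wild-type C57BL/6J mice that entered the interventions at 8 weeks of age and stayed in them for 8 weeks. Sedentary mice with free access to food formed the control group, calorie restriction (CR) lowered food intake stepwise to 70% of baseline, treadmill training (EX) was given with free feeding, and the CREX mice had both. BAT was sequenced from 3 control, 4 CR, 4 EX and 4 CREX mice and gastrocnemius muscle (SkM) from 14 mice of the same 4 groups, with 1 library per mouse and tissue.

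Skeletal muscle fibres are packed with sarcomeres, in which myosin heavy and light chains pull on actin filaments under the control of troponin and tropomyosin. Fast and slow fibres use different genes for most of these proteins, and embryonic and regenerating fibres use a further set. Brown adipocytes burn lipid for heat through the uncoupling protein UCP1, and the interscapular depot where they are concentrated in mice lies against muscles of the back and shoulder.

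The 5 score genes encode the skeletal muscle actin Acta1, the muscle creatine kinase Ckm, the fast myosin heavy chain Myh4, the fast regulatory light chain Mylpf and the fast troponin T Tnnt3. The 250 bases before the annotated starts of 4 of them are shown because these genes moved together across the libraries, followed by those of Myh7 and Tnnt1, the slow myosin heavy chain and slow troponin T, which did not always move with them (RefSeq, GRCm38.p6, read 5′ to 3′ along the gene). The windows are chr8:123894776-123895025 on the minus strand, chr7:19410844-19411093 on the plus strand, chr11:67237562-67237811 on the plus strand, chr7:127211358-127211607 on the plus strand, chr14:54994627-54994876 on the minus strand and chr7:4515976-4516225 on the minus strand. Tnnt3 is named only. Capitals mark CAGCTG, an E-box of the kind bound by myogenic factors, which reads the same on both strands and is a special case of CANNTG.
Acta1: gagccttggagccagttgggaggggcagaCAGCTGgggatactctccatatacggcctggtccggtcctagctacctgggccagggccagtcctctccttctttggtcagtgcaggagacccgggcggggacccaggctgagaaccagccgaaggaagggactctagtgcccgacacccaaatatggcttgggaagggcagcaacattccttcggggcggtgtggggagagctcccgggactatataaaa
Ckm: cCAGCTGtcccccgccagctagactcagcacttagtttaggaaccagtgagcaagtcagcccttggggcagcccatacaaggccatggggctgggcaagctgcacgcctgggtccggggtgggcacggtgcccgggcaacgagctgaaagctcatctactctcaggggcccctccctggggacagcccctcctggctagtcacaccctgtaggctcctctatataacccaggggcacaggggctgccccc
Myh4: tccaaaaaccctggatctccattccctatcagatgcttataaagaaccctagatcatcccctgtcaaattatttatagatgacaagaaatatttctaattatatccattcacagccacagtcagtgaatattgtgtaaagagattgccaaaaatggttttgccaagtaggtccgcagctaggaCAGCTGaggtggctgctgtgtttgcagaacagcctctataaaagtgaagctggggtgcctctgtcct
Mylpf: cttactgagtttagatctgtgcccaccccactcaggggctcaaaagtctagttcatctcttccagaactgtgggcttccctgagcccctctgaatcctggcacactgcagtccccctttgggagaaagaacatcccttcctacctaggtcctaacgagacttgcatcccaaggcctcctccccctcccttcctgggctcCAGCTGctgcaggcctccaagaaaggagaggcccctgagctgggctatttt
Myh7: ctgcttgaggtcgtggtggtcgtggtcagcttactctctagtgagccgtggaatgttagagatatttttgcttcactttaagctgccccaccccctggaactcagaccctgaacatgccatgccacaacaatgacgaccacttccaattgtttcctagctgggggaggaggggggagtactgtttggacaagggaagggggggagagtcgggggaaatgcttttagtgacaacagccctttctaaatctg
Tnnt1: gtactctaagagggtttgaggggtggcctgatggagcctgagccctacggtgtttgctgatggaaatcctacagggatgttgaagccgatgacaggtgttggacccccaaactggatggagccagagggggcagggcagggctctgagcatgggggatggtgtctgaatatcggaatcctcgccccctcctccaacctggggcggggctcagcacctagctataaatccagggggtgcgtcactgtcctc

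CAGCTG was found once in each of the 4 score gene windows and in neither the Myh7 nor the Tnnt1 window shown, while 13.0% of all 32851 windows of this length held it. Myh7 has 2 windows, and only the first listed was searched for it here. The Mylpf window lies inside the span of its gene (127208848 to 127214288), before a start within that span. Of the listed fast fibre genes with a window it was found in 5 of 11, of the slow fibre genes in 4 of 12 and of the brown adipocyte genes in 1 of 13. A CArG box was found in the Acta1 and Myh4 windows and in 1.47% of all windows, and a MEF2-type motif in the Myh4 window and in 1.69% of all windows. A match in these windows says only that the letters are present.

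Library totals ran from 21154276 to 24665593 counts in the low and from 21047242 to 24919377 counts in the high libraries, so that 3 counts correspond to 0.120 to 0.143 CPM. Intervals and limits of this kind cover counting error only. Ucp1 reached between 1380 and 4798 CPM in the BAT libraries and averaged 0.0154 CPM in SkM, and the score of the SkM libraries lay between 13.8 and 14.6. One library, EX replicate 3, stood apart, with 28 genes of at least 5 CPM that were at least 5 times the highest other BAT library (after adding 0.2 CPM to that library). Between 0 and 4 such genes were found in each of the other BAT libraries.

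The 5 score genes varied widely between BAT libraries. Acta1 stood at 0.730 and 14.2 CPM in control replicates 3 and 2, at 3.61 and 11.2 CPM in CR replicates 1 and 2 and at 1.36 CPM in EX replicate 4. In the high libraries it reached 177 CPM at the lowest, 383 CPM at the median and 1808 CPM at the highest, so that the libraries did not overlap. Mean levels of Acta1 were 6.22 ± 6.10 CPM (SD, n = 5) in the low and 647 ± 584 CPM (SD, n = 10) in the high libraries, against 31547 CPM in SkM. Myh4, which lies next to other myosin heavy chain genes of similar sequence, stood at 0.181 to 13.1 CPM in the low and at 143 to 1249 CPM in the high libraries. For Ckm these ranges were 0.324 to 9.36 and 86.2 to 796 CPM.

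Set against the mean SkM level, the median of the 5 genes was 0.00177% in control replicate 3 and 0.0405% in control replicate 2 among the low libraries. Among the high libraries it ran from 0.442% in control replicate 1 to 3.85% in CREX replicate 3. The 2 libraries nearest to the latter were EX replicates 3 and 2, with 2.73% and 2.65%. In bulk RNA, more muscle fibres in a sample and more of these transcripts per cell cannot be told apart.

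**Figure D1:**
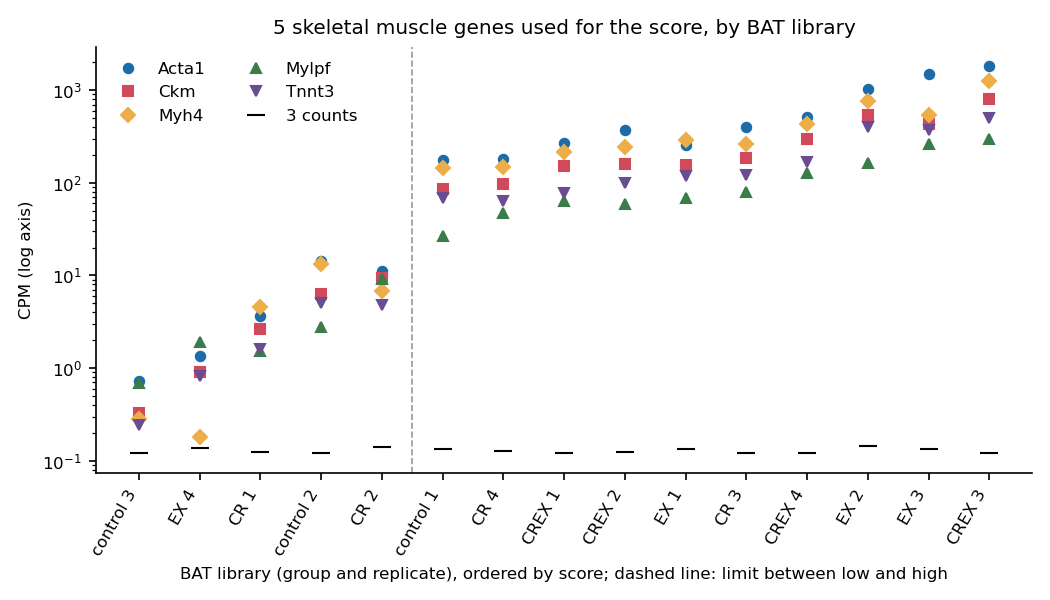
CPM (log axis) of the 5 score genes in each BAT library, ordered by score, with the level of 3 counts as a dash and the limit between low and high libraries as a dashed line. Acta1 does not exceed 14.2 CPM in the 5 low libraries and is at least 177 CPM in the 10 high libraries, a separation that follows from the way the libraries were chosen.

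High and low libraries were found in 3 of the 4 groups. Of the control libraries 1 was high and 2 were low, of the CR libraries 2 were high and 2 were low, and of the EX libraries 3 were high and 1 was low. All 4 CREX libraries were high, with scores from 7.08 to 9.59. With no low CREX library, the difference between high and low libraries within groups comes from the other 3 groups, while the CREX libraries still enter the estimate of the spread and the filter on low counts. Whether the score differs between the groups was not tested.

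Over all 14210 genes tested, with the intervention group in the model, edgeR called no gene different between high and low libraries (0.0%), where a call needed a fold above 1.5 and a p under 0.05 after Benjamini-Hochberg adjustment. The smallest adjusted p was 0.101, and 1035 genes had an unadjusted p under 0.05. DESeq2 called 206 genes on the same design. Without CREX replicate 3, the library with the highest score, edgeR called 134 genes, and with the score itself in place of the class it called 290. Of these calls, 203 by DESeq2, 132 without CREX replicate 3 and 283 with the score were of muscle-enriched genes, and every one of these was higher with more muscle RNA. Muscle-enriched are the 1596 genes, score genes included, whose mean CPM + 1 in SkM was at least 2 times that in the low BAT libraries.

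As a description, every high library lay above every low library for 229 genes, which is 1.61% of all genes tested, and below for 1 gene, which is 0.00704%. Among the 229 were the 5 score genes and 221 other muscle-enriched genes. The fitted log2 difference followed the level in muscle. With genes binned by the log2 ratio of their SkM to their low BAT level, its median was -0.03 over 2759 genes with a ratio below -1, 0.24 over 413 genes from 2 to 4, 1.39 over 177 genes from 4 to 6, 3.30 over 98 genes from 6 to 8 and 5.33 over the 59 genes above 8. The low BAT libraries enter both quantities, which therefore share part of their error.

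**Figure D2:**
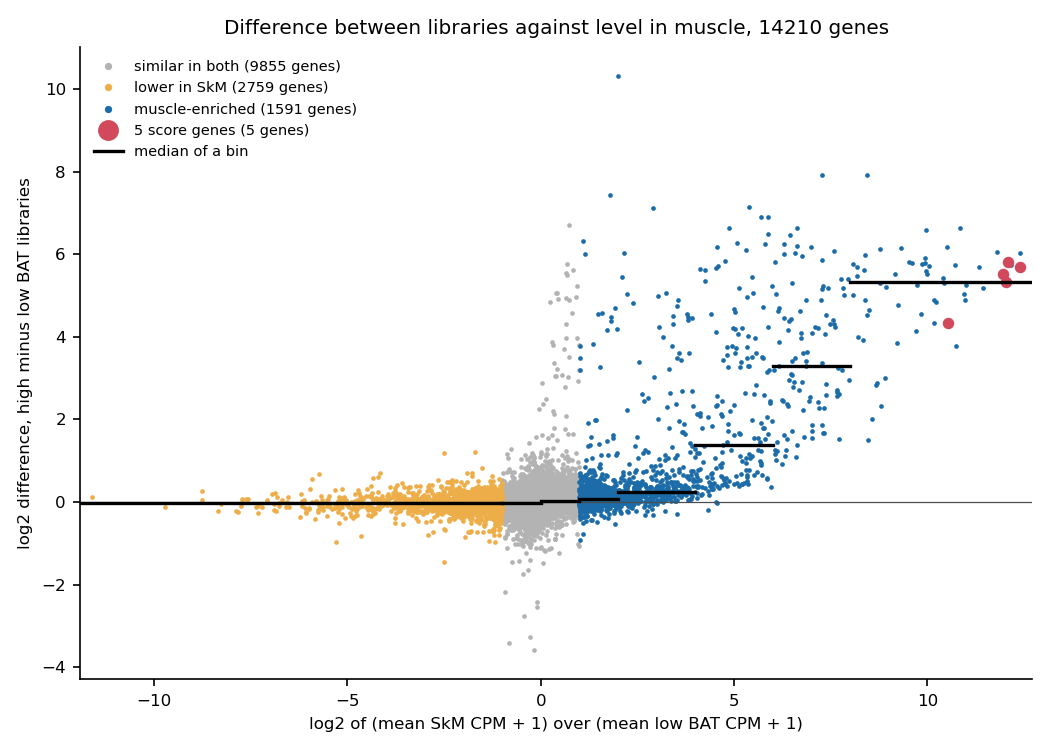
Fitted log2 difference between high and low BAT libraries (vertical axis) against the log2 ratio of the mean level in SkM to that in low BAT libraries (horizontal axis), 1 point per gene for 14210 genes, with black bars at the median of each bin. The bars lie between -0.03 and 0.08 up to a log2 ratio of 2 and reach 5.33 above a log2 ratio of 8. Of the 29 grey points above 3 on the vertical axis, 23 are genes highest in CR replicate 3, CREX replicate 4 and EX replicate 2.

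Genes of the fast contractile apparatus were higher in the high libraries without exception. Of the 16 listed genes, Myh4, Mylpf and Tnnt3 are score genes, whose separation the choice of libraries fixed. The libraries did not overlap for any of the other 13 either, while 1.61% of all genes tested lay without overlap in this direction. The median log2 difference of the 13 was 5.43, against 0.0032 over all genes tested. The choice of libraries bears on these 13 and on the other muscle lists as well, since the score genes are made in the same fibres. Atp2a1, the calcium pump of fast fibres, stood at 0.091 to 10.04 CPM in the low and at 144 to 1316 CPM in the high libraries (log2 difference 6.02, SE 1.12). The alpha-actinin of fast fibres, Actn3, averaged 0.84 ± 0.83 CPM (SD, n = 5) in the low and 82.3 ± 64.9 CPM (SD, n = 10) in the high libraries. Myl1, a light chain of fast fibres, also had 31.5 to 46.0 CPM in the low libraries, and its log2 difference was 1.54.

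Of 23 sarcomere genes that all fibres share, 1 is the score gene Acta1. The other 22 were all higher and without overlap (1.61% over all genes tested), with a median log2 difference of 4.89. Ttn, which encodes the giant spring protein titin, lay between 0.136 and 3.86 CPM in the low and between 49.5 and 689 CPM in the high libraries. Desmin (Des), an intermediate filament also made by smooth muscle, had a background of 37.8 to 45.9 CPM in the low libraries and a log2 difference of 1.11. Of the 16 genes of excitation-contraction coupling, 14 did not overlap, again against 1.61% over all genes tested. The median log2 difference of the 16 was 3.73 (3.59 with the 2 genes at or below 3 counts in every low library set to their lower bound). Ryr1, the calcium release channel, stood at 0.041 to 1.79 CPM in the low and 15.5 to 153 CPM in the high libraries.

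In the energy supply of fibres, apart from the score gene Ckm, 18 of 19 genes were higher (median log2 difference 2.32). Of the 19, 13 did not overlap (1.61% over all genes tested). Myoglobin (Mb), the oxygen store of oxidative fibres, stood at 1.51 to 3.54 CPM in the low and 14.1 to 330 CPM in the high libraries. The phosphofructokinase Pfkm, at 59.8 to 69.1 CPM in the low libraries, was also made in BAT with little muscle RNA, and its log2 difference was 0.44.

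Several protein families have 1 form that is abundant in striated muscle and another that is made more widely. Of 21 such pairs, 2 hold a score gene, and in 18 of the other 19 both members were tested. The 19 striated muscle forms had a median log2 difference of 1.02, with 10 above 1, and the 18 other forms had a median of -0.01. The difference was larger for the striated muscle form in 15 pairs and for the other form in 3. For glycogen phosphorylase, Pygm averaged 4.10 ± 1.11 CPM in the low and 103 ± 81.8 CPM in the high libraries (SD, n = 5 and 10), while the liver form Pygl averaged 578 ± 74.6 and 533 ± 112 CPM. The log2 differences were 3.79 for Pygm and -0.24 for Pygl (SE 0.18, edgeR adjusted p = 0.83). Of the forms paired with score genes, brain-type Ckb averaged 14.7 ± 1.43 CPM in the low and 12.5 ± 3.35 CPM in the high libraries.

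Phosphoglycerate mutase gave 4.83 for Pgam2 and 0.00 for Pgam1, and cytochrome c oxidase subunit 6A gave 4.55 for Cox6a2 and -0.14 for Cox6a1, all on the log2 scale. The 3 pairs with the larger value in the other form were the junctophilins, where Jph2, also a muscle gene, had 2.63 and Jph1 1.02, Cox8b (-0.14) with Cox8a (-0.11), and Cpt1b (0.04) with Cpt1a (0.17). Where the striated muscle form averaged over 200 CPM in the low libraries, as for Acacb, Cox8b, Cpt1b, Cox7a1, Slc25a4 and Fabp3, the fitted difference lay between -0.14 and 0.38. Actb and Acta1 are close in sequence, and reads they share may have been split between them in counting.

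**Figure D3:**
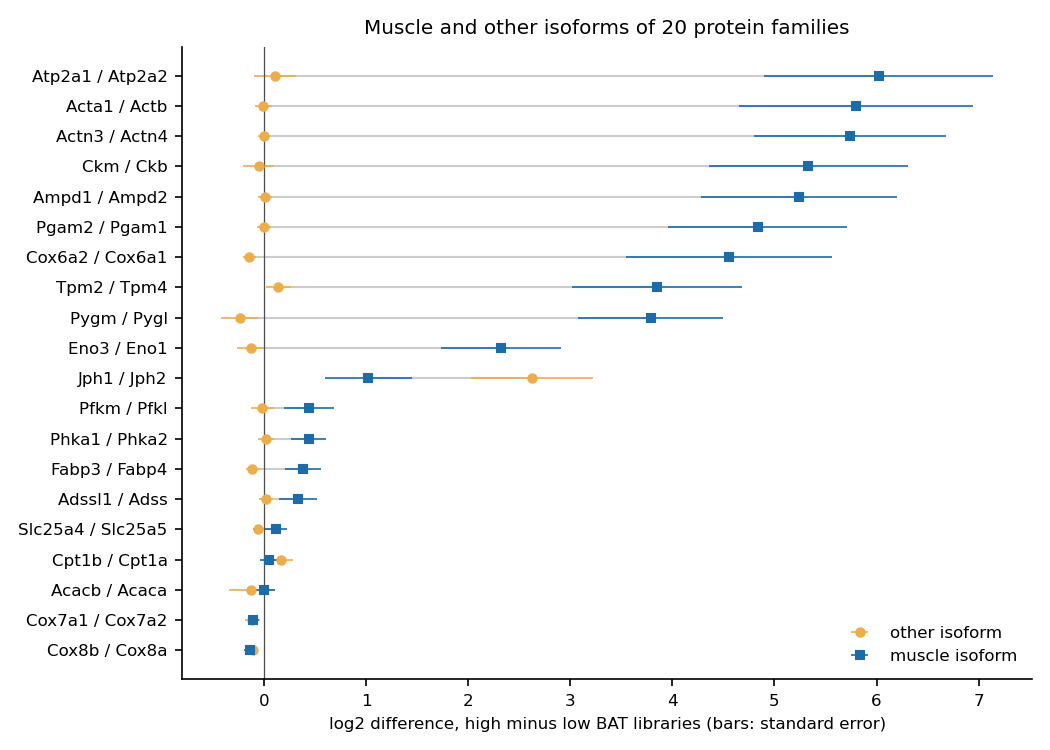
Fitted log2 difference between high and low BAT libraries for the striated muscle form (blue squares) and the other form (yellow circles) of 20 protein families, with standard errors as bars. The pairs of Acta1 and Ckm hold score genes. The blue squares reach up to 6.02 for Atp2a1, and the yellow circles lie between -0.24 and 0.17 except for Jph2 at 2.63.

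Muscle-enriched genes stood at different shares of their SkM level in the high libraries. Over 397 muscle-enriched genes above 100 CPM in SkM, the mean of the high libraries minus that of the low libraries came to a median of 1.78% of the SkM level (quartiles 1.12% and 2.58%). Among the largest shares were those of Myh7 (19.8%), Tnnt1 (16.4%), Tpm3 (13.9%), Myl2 (11.0%) and Fhl1 (8.78%). Of these, Myh7, Tnnt1, Tpm3 and Myl2 encode proteins of the slow sarcomere. The smallest were negative, from -6.52% for Gmpr to -2.63% for Sgk1, with Atf4, LOC101056014, Sqstm1 and Rps26 in between, and these genes stood at 34.3 CPM or more on average in the low libraries.

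Slow fibre genes divided the high libraries in another order than the score did. Myh7 stood at 4.26 CPM in control replicate 1, at 48.6 and 8.07 CPM in CR replicates 3 and 4, and at 17.1, 60.8, 374 and 21.3 CPM in CREX replicates 1 to 4. In EX replicates 1, 2 and 3 it was at 9.35, 0.855 and 197 CPM, and in the low libraries it did not exceed 0.366 CPM. CREX replicate 3 was thus at 99.9% of the mean SkM level of Myh7, and EX replicate 3 at 52.7%, while for Myh4 the same libraries were at 3.85% and 1.66%. EX replicate 2 went the other way, with 0.229% for Myh7 and 2.38% for Myh4.

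The other slow genes were also far higher in CREX replicate 3 and EX replicate 3 than in EX replicate 2, though the order of the first pair varied. Tnnt1 was at 73.9% of its SkM level in CREX replicate 3, 49.3% in EX replicate 3 and 0.450% in EX replicate 2, and the slow troponin I Tnni1 was at 92.8%, 97.2% and 0.407%. Over the 12 slow fibre genes above 10 CPM in SkM, the median share of the SkM level was 67.2% in CREX replicate 3, 55.7% in EX replicate 3, 11.1% in CREX replicate 2 and 9.81% in CR replicate 3. Sarcolipin (Sln), a regulator of the calcium pump, reached 18.4 CPM in EX replicate 3 and 8.15 CPM in CREX replicate 3, which is 408% and 181% of its SkM level. The slow median was 1.48% in EX replicate 2, the one high library where it lay below the median of the fast fibre genes (2.82%). The ratio of the slow to the fast median ran from 0.526 in EX replicate 2 to 20.8 in EX replicate 3. Gastrocnemius, the reference here, is rich in fast fibres, which bears on the size of these shares but not on the order of the libraries. All 14 slow fibre genes were higher in the high libraries, with a median log2 difference of 4.94 (4.84 with 3 genes at their lower bound). Of these 14, 8 did not overlap (1.61% over all genes tested).

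**Figure D4:**
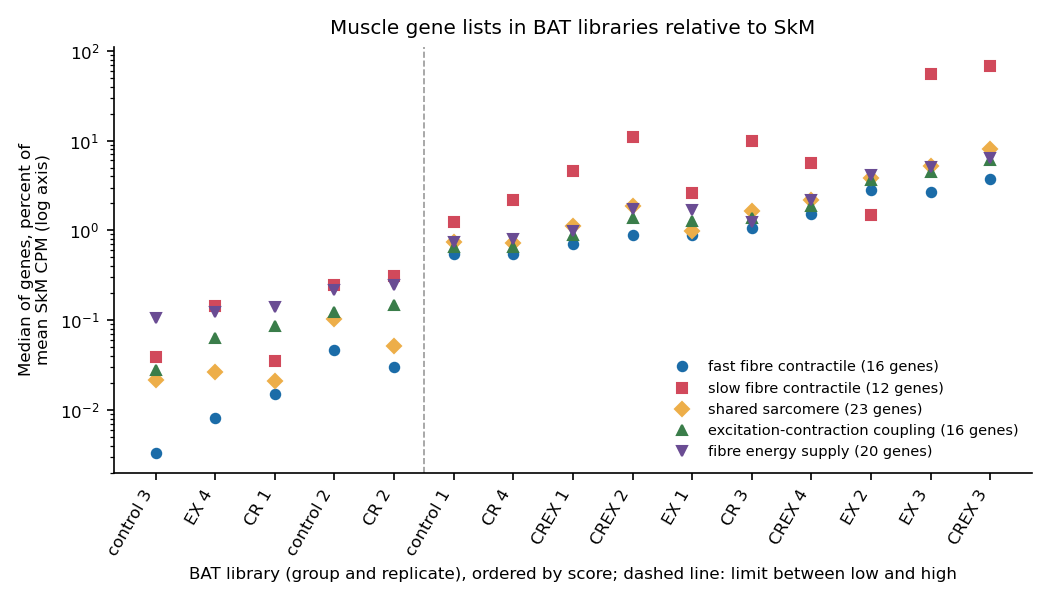
Median over the genes of 5 muscle lists above 10 CPM in SkM, as percent of the mean SkM level (log axis), in each BAT library ordered by score. The fast, shared and energy lists hold score genes. The fast fibre median is 0.548% or less in control replicate 1, CR replicate 4 and the low libraries and 2.82%, 2.68% and 3.76% in the last 3 libraries, whereas the slow fibre median is 1.48% in EX replicate 2 and 55.7% and 67.2% in the next libraries, EX replicate 3 and CREX replicate 3.

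EX replicate 3 also held transcripts known from developing or regenerating muscle, some of which adult SkM held as well. The following genes were picked after their values were seen. Myh3, the embryonic myosin heavy chain, stood at 113 CPM in this library, at 0 in the 5 low libraries, at 0.692 CPM or less in the other high libraries and at 3.02 CPM on average in SkM. Myh8, the perinatal myosin heavy chain, stood at 78.3 CPM against at most 0.122 CPM elsewhere in BAT and 1.65 CPM in SkM. Both genes lie on chromosome 11 in the cluster that holds Myh4, so reads shared with neighbouring myosin genes may be split between them.

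Myog, a regulator of myoblast differentiation, stood at 10.4 CPM against at most 0.652 CPM in the other BAT libraries, and Tmem8c, the fusion protein of myoblasts, at 7.38 CPM against at most 0.0443 CPM. In SkM, Myog averaged 6.53 CPM and reached 32.6 CPM in 1 library, so that its level in EX replicate 3 lay within the SkM range. Myl4 and Tnnt2, isoforms of embryonic muscle, were at 49.0 and 17.2 CPM against at most 1.47 and 0.190 CPM in other BAT libraries and 3.95 and 1.72 CPM on average in SkM. Actc1 was at 44.8 CPM against at most 2.57 CPM in BAT, but it averaged 215.8 CPM in SkM. Chrnd, a subunit of the acetylcholine receptor of muscle, was at 5.47 CPM in EX replicate 3 and at most at 0.530 CPM elsewhere. Of the 28 genes that marked this library, 18 were muscle-enriched by the ratio to the low BAT libraries. These 18 are not all genes of muscle fibres, since Fn1 and Thbs4, described below with the matrix genes, are among them.

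Matrix genes were high in the same library. Col1a1 and Col1a2, the chains of type I collagen, stood at 384 and 374 CPM, where no other BAT library exceeded 40.5 and 59.2 CPM. Fibronectin (Fn1) was at 206 CPM against at most 27.4 CPM, and tenascin C (Tnc) at 69.98 CPM against at most 4.83 CPM. The summed level of the 15 listed fibroblast and matrix genes was 2747 CPM in EX replicate 3, and between 515 and 1029 CPM in the other BAT libraries. Thbs4, a thrombospondin of tendon and muscle, was at 65.8 CPM against at most 2.32 CPM. Of other tendon genes, Fmod was at 5.33 CPM against at most 0.754 CPM in the other BAT libraries. Tnmd was at 1.24 CPM, where the high libraries, this one included, averaged 0.162 CPM, and Kera was at 0.

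**Figure D5:**
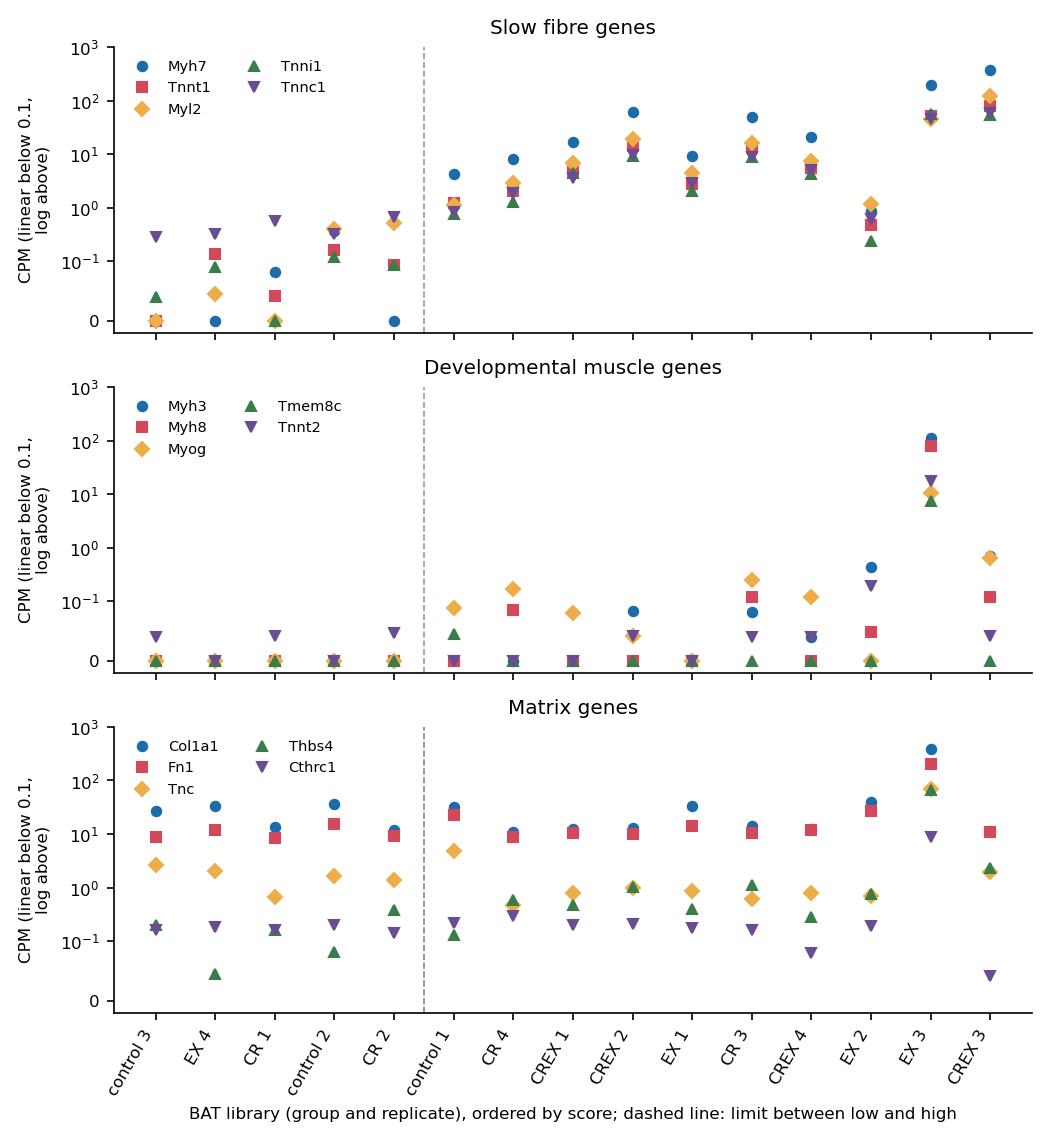
CPM (linear below 0.1, log above) of slow fibre genes, developmental muscle genes and matrix genes in each BAT library, ordered by score. EX replicate 3 is the one library with more than 1 CPM of Myh3 (113 CPM) and of Myh8 (78.3 CPM), and it has 384 CPM of Col1a1 against at most 40.5 CPM elsewhere.

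Most listed regulators of the muscle lineage were rare in the low BAT libraries, but the list as a whole was not. Of 14 listed genes of myogenic regulators and satellite cells, 5 were too low to be tested. In the low libraries, 11 of the 14 had at most 3 counts in every library, and 7 had no count in any. The summed level of the list was 27.962 to 54.93 CPM in the low and 27.569 to 103.75 CPM in the high libraries. It was highest in EX replicate 3. Pax7, which marks satellite cells, reached at most 0.3999 CPM, and Myod1 ran from 0.044 to 3.55 CPM in the high libraries. Of the 9 tested genes, 6 had at most 3 counts in every low library and so passed the filter through the high libraries. With a filter of at least 1 CPM in 4 libraries, 5 genes were left, with a median log2 difference of 0.79. For the neuromuscular junction, 1 of 10 tested genes did not overlap between high and low libraries (1.61% over all genes tested).

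Of 10 cardiac genes 4 were tested, all higher, with a median log2 difference of 1.83 that was 1.06 without EX replicate 3 and 3.79 without the group in the model, and 3 of the 4 were muscle-enriched. Cardiac markers that skeletal muscle lacks were low, with Nppa at 0.095 CPM or less and Myh6 at 0.4003 CPM or less. Of 10 smooth muscle genes 1 did not overlap (1.61% over all genes tested), the muscle-enriched Synpo2. The list median was 0.04 (-0.02 without EX replicate 4). Among Schwann cell genes, Mbp, a myelin protein, had an unadjusted p of 0.00342 (log2 difference 0.33, SE 0.10, edgeR adjusted p = 0.306).

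Outside muscle genes the fitted differences were small for most genes. The 12614 genes that were not muscle-enriched had a median log2 difference of -0.0089 (quartiles -0.093 and 0.086). At an unadjusted p under 0.05, 256 were higher (2.03%) and 394 lower (3.12%). A share of about 0.05 of genes without a difference would pass that threshold, counting both directions together. The 2 kinds of gene pooled here differed. Of the 2759 genes with a log2 ratio of SkM to low BAT below -1, 22 were higher and 179 lower at that threshold. Of the 9855 genes at similar levels in both, 234 were higher and 215 lower. Of these 12614 genes edgeR called 0, but it also called 0 of the 1596 muscle-enriched genes. That count therefore does not show that the other genes were alike. DESeq2 called 3 of the genes that were not muscle-enriched, Lgr6 higher and Mmp9 and Slc22a12 lower, named here because they were called. Lgr6 averaged 35.2 CPM in the low and 35.9 CPM in the high libraries. Its log2 difference was 0.59 by DESeq2 with the group in the model and 0.0099 by edgeR without it. Slc22a12, a urate transporter, lay at 0.0811 to 2.09 CPM in the low and 0.0419 to 0.285 CPM in the high libraries (log2 difference -3.40, SE 0.67, edgeR adjusted p = 0.101), and the libraries overlapped. The matrix metalloproteinase Mmp9 had 0.452 to 2.86 and 0.255 to 1.46 CPM. The genes without overlap were Dnajc10, Gm11992 and Tcea2 above and Pcbd2 below, all with an edgeR adjusted p of 0.24 or more. Pcbd2, at 11.99 to 14.6 CPM in the low and 8.88 to 11.9 CPM in the high libraries, had a log2 difference of -0.27 (SE 0.08).

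Among 29 genes that were not muscle-enriched and had a log2 difference above 3, 23 had their 3 highest values in CR replicate 3, CREX replicate 4 and EX replicate 2. Liver genes stood out there. Of 8 hepatocyte genes 6 counted as muscle-enriched, because some SkM libraries held them too. Albumin (Alb) was at 50.8, 32.9 and 40.4 CPM in these libraries, at 3.15 CPM in control replicate 1 and at 0.770 CPM or less in the other BAT libraries, and in SkM it ran from 0 to 168 CPM. The summed level of 8 hepatocyte genes was 72.1, 44.0 and 80.1 CPM in the 3 libraries and 0.976 to 7.51 CPM in the other 12. EX replicate 2 also had the major urinary protein genes Mup3 (13.7 CPM, at most 0.931 CPM elsewhere in BAT) and Mup20 (10.3 CPM, at most 0.577 CPM elsewhere), members of a family of near-identical copies whose counts are uncertain. Since these libraries are high, genes of this kind appear with large fitted differences and large errors (Alb: log2 difference 5.71, SE 2.73, edgeR adjusted p = 0.698).

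Brown adipocyte genes showed small differences. None of 19 tested genes was called, as was true of all 14210 genes tested (0.0%), so this count says nothing about them in particular. Of the 19 genes, 11 were higher and 8 lower, and the median log2 difference was 0.05 (-0.04 without CR replicate 3). Ucp1 was at 4128 and 4798 CPM in control replicates 3 and 2, 1951 and 1885 CPM in CR replicates 1 and 2 and 3060 CPM in EX replicate 4, and in the high libraries at 1380 to 4232 CPM with a median of 2421 CPM. The ranges overlapped throughout, and with the group in the model the log2 difference was 0.12 (SE 0.17, edgeR adjusted p = 0.912). Cidea, a lipid droplet protein of brown fat, averaged 1610 ± 172 CPM (SD, n = 5) in the low and 1438 ± 107 CPM (SD, n = 10) in the high libraries (log2 difference -0.13, SE 0.07, edgeR adjusted p = 0.744).

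Cox8b, a respiratory subunit typical of brown fat and muscle, was the one brown adipocyte gene with an unadjusted p under 0.05 (log2 difference -0.14, SE 0.06, edgeR adjusted p = 0.628). Of genes shared by all adipocytes, 7 were higher and 8 lower, among them Fabp4 (-0.12, SE 0.06) and Adipoq (-0.13, SE 0.07) on the log2 scale. Of 24 respiratory chain subunits 23 were lower, by small amounts, with a median log2 difference of -0.05 and a range from -0.12 to 0.02. That median was -0.01 without EX replicate 4 and -0.09 without control replicate 1. Beta-oxidation and fatty acid synthesis genes had medians of -0.02 and -0.04, whose sign was not stable. The former was 0.05 without EX replicate 4, and the latter was 0.04 without control replicate 1 and 0.11 without the group in the model.

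Endothelial genes were lower for 10 of 12, with a median of -0.11 (-0.24 without control replicate 1 and -0.05 without EX replicate 4), and the tight junction protein Cldn5 had the largest difference (log2 difference -0.54, SE 0.22, edgeR adjusted p = 0.617). The medians were -0.02 for macrophage, 0.16 for fibroblast and matrix, 0.13 for white adipocyte and -0.67 for erythroid genes. No gene of these lists was called, as was true of all 14210 genes tested (0.0%). Leaving out EX replicate 4 moved the macrophage, fibroblast and white adipocyte medians to -0.19, -0.06 and -0.07, and leaving out control replicate 3 moved the erythroid median to -0.38. B cell, T cell and mesothelial lists had 2, 1 and 1 tested genes, with medians of 0.20, 0.06 and -0.18. Of 16 immediate early genes 14 were lower with more muscle RNA (median -0.22), and with the limit between high and low libraries set at 3 their median was 0.53. It was -0.72 without EX replicate 4 and 0.10 without control replicate 1. Their summed level ran from 104 to 882 CPM in the low and from 75.2 to 252 CPM in the high libraries. The heat shock list had a median of -0.15, which was -0.36 without EX replicate 4 and -0.01 without CR replicate 3, but its small heat shock proteins of muscle, Hspb7 and Hspb6, were muscle-enriched, with log2 differences of 4.65 and 1.26.

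The components that carry most variance were taken from the 500 most variable genes, of which 281 were muscle-enriched. The first component held 64.8% of the variance, and the 10 high libraries (-1.78 to 34.6) did not overlap the 5 low libraries (-28.0 to -21.0) on it, a separation that the choice of libraries bears on. When muscle-enriched genes were left out, the first component held 57.7%, and high libraries (-16.0 to 13.3) and low libraries (-16.5 to 14.2) overlapped. Muscle-enriched genes took 3.96% of the counts in the high and 3.18% in the low libraries.

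The intervention comparisons ask what CR and EX did in BAT, and each was fitted with and without a term for high or low muscle RNA. With the term, 1463 of 14210 genes (10.3%) were called between CR and control, 504 higher and 959 lower, and without it 1379 (9.7%). The 1324 genes called in both fits are 90.5% of the former and 96.0% of the latter. Leaving out control replicate 2 lowered the count with the term to 912, and leaving out both low libraries nearest the limit, CR replicate 2 and control replicate 2, lowered it to 691. In the low libraries alone, 2 CR against 2 control, 1708 genes were called.

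The muscle term was set from the score genes, which are made in muscle fibres. Smaller differences of fibre genes with the term, here and in the comparisons below, are built into that choice and are not a finding. Fast fibre genes, 3 of them score genes, had a median log2 difference between CR and control of 1.04 without the term and 0.17 with it. For the slow fibre genes these were 1.88 and 1.22. None of either list was called in either fit. Brown adipocyte genes kept a median of -0.22 in both, with 4 of 19 called without and 6 with the term. The genes with the smallest p among those called only with the term were Sepp1, Mocs2, Psmd13, Srf and Nrp1. For Sepp1, a plasma selenium carrier, the log2 difference was 0.60 with and 0.58 without the term, where a fold of 1.5 is the limit. Among those called only without it were AI464131, Kidins220, Zc3h8, LOC108167529 and Serpina3c, and AI464131 had 0.58 with and 0.60 without it.

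Between CREX and EX, 971 genes (6.83%) were called with the term, 361 higher and 610 lower, and 880 (6.19%) without it. The 833 shared genes are 85.8% of the former and 94.7% of the latter. Fast fibre genes, 3 of them score genes, had a median log2 difference of 0.21 without and -0.01 with the term. Mcam, Cdk17, Ccnl2, Peli2 and H6pd headed the genes called only with the term, and Trim2, Flcn, Hist2h2aa1, Catsper2 and Ccp110 those called only without it. Trim2 had a log2 difference of -0.58 with the term and -0.59 without it. Fibroblast and matrix genes, which were high in EX replicate 3, had a median of -1.07 with the term, and 9 of 15 were called. Their summed level was also higher in EX replicates 1, 2 and 4 (899, 1029 and 931 CPM) than in the CREX libraries (556 to 646 CPM). Without EX replicate 3 the count over all genes was 690.

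Training without CR gave 1 called gene either way, 0.00704% of those tested, but not the same gene. With the term it was Mcam, a cell adhesion molecule of vessels, at 51.0, 51.6 and 43.9 CPM in control replicates 1 to 3 and at 31.9, 35.9, 34.4 and 26.0 CPM in EX replicates 1 to 4. The groups did not overlap (log2 difference -0.77, SE 0.09, edgeR adjusted p = 0.00434, against -0.64, SE 0.12 and 0.129 without the term). Without the term it was Atg101, an autophagy factor, at 23.3 to 31.5 CPM in control and 16.1 to 17.2 CPM in EX libraries (log2 difference -0.76, edgeR adjusted p = 0.0411, against -0.73 and 0.126 with the term). At an unadjusted p under 0.05 there were 974 genes with and 1126 without the term, and DESeq2 called 20 genes with it. No gene was called with the term when EX replicate 4, the one low EX library, was left out.

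Fast fibre genes, 3 of them score genes, had a median log2 difference between EX and control of 3.10 without and 1.44 with the term. None was called in either fit. The slow fibre medians were 3.80 and 2.48.

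Between CREX and CR, Psat1, an enzyme of serine synthesis, was the 1 gene called in both fits (0.00704%). It stood at 5.86, 5.32, 6.19 and 6.99 CPM in CREX and at 2.67, 2.36, 2.69 and 3.06 CPM in CR replicates 1 to 4, without overlap. Its log2 difference was 1.14 (SE 0.15, edgeR adjusted p = 0.0321) with the term and 1.16 (SE 0.14, edgeR adjusted p = 0.00363) without it. All CREX libraries are high, and no gene was called with the term in 10 of the 15 fits that left out 1 library, among them those without CR replicates 2, 3 and 4. The fast fibre medians between CREX and CR, over a list with 3 score genes, were 2.13 without and 1.07 with the term. Again no gene of the list was called. In all 4 comparisons the median absolute shift of a gene's log2 difference on adding the term was small, between 0.015 and 0.047.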

How the data were processed

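Total RNA from BAT and SkM was sequenced by the authors, who trimmed the reads with trim-galore, aligned them to mm10 with STAR 2.7.10a and quantified genes with RSEM. The deposited values are expected counts per gene symbol, not normalized, and the annotation used for counting is not given in the sources used here. Of 24770 symbols, 27 had been turned into dates and 2 were duplicated, and none of these is named. Expected counts were rounded to whole counts. Nothing in the labels pairs mice across groups, and p-values measure the spread between mice.

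High against low libraries and the 4 intervention comparisons were fitted on all 15 BAT libraries with edgeR 4.0.16 (R 4.3.3), with the robust quasi-likelihood test, TMM, filterByExpr, and terms for intervention group and muscle class. A call needed a fold above 1.5 and a p under 0.05 after Benjamini-Hochberg adjustment, thresholds the authors used with DESeq2. Standard errors were derived from the log2 difference and the F statistic (difference over root F). A gene at or below 3 counts in every low library has a lower bound computed against the mean CPM of 3 counts in the low libraries. CPM values used the library total, and tables and figures used Python 3.11.15, pandas 2.3.3 and matplotlib 3.10.9. The tests were checked on simulated counts of genes that are not muscle-enriched, with changes added to well expressed genes. That check does not cover the large differences of the muscle genes. Named genes are the score genes, up to 4 by smallest p and 3 most abundant of a discussed list, the isoform pairs, the 6 largest and smallest ratios to the SkM level, and up to 5 genes called only with or only without the muscle term by p. Some genes that the rule names are not reported here. Any other gene was named after its values were seen. The libraries, lists and rules were chosen with earlier results of these data known. Alternatives were DESeq2 1.42.0, RLE size factors, TMM on genes that are not muscle-enriched, other filters on low counts, a replicate block, the score as a covariate, no group term, limits of 3 and 5, no fold minimum and each library left out. Leaving out the CREX group, the 2 low libraries nearest the limit or the score genes from lists and pairs was chosen after seeing the data.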

Additional observations from a re-analysis of the deposited data

Results flagged for a closer look

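In the groups of 4 libraries, 24 reported values were examined. The question was whether the highest or lowest library was set apart by a gap taking up an unusually large part of the range. Of 72 combinations of value and group, those in which no library reached 1 CPM of the gene were not examined. A library set apart in this way was found in 26 of the 72. Several of the genes, among them Myh3 and Myh8, were picked after their values were seen, so this count cannot be set against a chance rate. Genes of one program are also not independent of each other.

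EX replicate 3 stood apart in its group for the median slow fibre share of the SkM level (55.7%), Myh7 (197 CPM), Tnnt1 (52.1 CPM), Myl2 (45.5 CPM), Tnnc1 (44.7 CPM), Myh3 (113 CPM), Myh8 (78.3 CPM), Col1a1 (384 CPM) and Tnc (69.98 CPM). CREX replicate 3 stood apart for the slow fibre share (67.2%), Acta1 (1808 CPM), Myh7 (374 CPM), Tnnt1 (78.0 CPM), Myl2 (124 CPM), Tnnc1 (59.5 CPM), Atp2a2 (312 CPM), Mb (245 CPM) and Tnc (1.96 CPM). In the CR group replicate 3 did so for Myh7 (48.6 CPM), Tnnt1 (13.2 CPM), Tnnc1 (8.88 CPM), Alb (50.8 CPM) and Ucp1 (2552 CPM). Alb also set CREX replicate 4 (32.9 CPM) and EX replicate 2 (40.4 CPM) apart, and Cidea set EX replicate 4 apart (1802 CPM), the one low library among these.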

How the results depend on the processing

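For high against low libraries, RLE size factors, TMM on genes that are not muscle-enriched, other filters on low counts, no fold minimum and limits of 3 or 5 left the count of calls at 0. DESeq2 called 206 genes, the score as a covariate 290, the fit without intervention group 191, the replicate block 145 and the fit without the CREX group 65, and with 1 library left out the count ran from 0 to 134 (without CREX replicate 3). Among genes that are not muscle-enriched these fits called 3 (DESeq2), 7 (score), 1 (no group), 1 (replicate block) and 0 to 2 (1 library left out). Between CR and control the count was 2834 without a fold minimum and 691 without the 2 low libraries nearest the limit, and it ran from 912 to 1518 with 1 library left out. Between CREX and EX it was 1919 without a fold minimum and ran from 690 to 1016. EX against control gave 20 calls with DESeq2, 2 without a filter on low counts, 2 with the replicate block and 0 to 3 with 1 library left out. CREX against CR gave 3 with DESeq2, 0 with the replicate block, 0 without the 2 low libraries nearest the limit and 0 to 2 with 1 library left out. The cause was not tested. Deviations of same-numbered libraries from their group means had a mean r of -0.256 (CR and control), 0.102 (CREX and EX), -0.203 (EX and control) and 0.068 (CREX and CR). Single pairs ran from -0.444 (CR and control) to 0.476 (CREX and EX). With 3 or 4 pairs per comparison, these values cannot decide whether the numbers pair the mice. Restricting to low libraries was possible only for CR against control. Scaling moved the median log2 difference of all genes by at most 0.012. For gene lists, 37 of 804 medians under other settings moved by more than the spread within the list. For single genes 153 of 1210 values changed, 59 by more than their standard error and 94 in that the gene became called. Depth limits genes near 3 counts, and the contrast of high and low rests on 11 libraries.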
